A study of Rattus norvegicus with 12 samples.

Results

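Kinesins and cytoplasmic dyneins are the motor proteins that walk along microtubules. The table holds 58 genes of this kind among 18800 gene symbols, taken by name: the numbered Kif genes, Kifc genes, kinesin light chains, and the chains of cytoplasmic dynein, each with a summed count of at least 50 over all columns. The name rule also took in Kif1bp, an older symbol of Kifbp, which encodes a protein that binds kinesins and is not itself a motor. RefSeq lists 57 of the 58 under their current symbols and Kif1bp as a synonym.

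Most kinesins carry cargo towards the growing ends of microtubules, which in axons means away from the cell body, and cytoplasmic dynein carries cargo back. Neurons depend on both because synaptic vesicle precursors, mitochondria, receptors and messenger RNA must travel far along axons and dendrites. Other kinesins build the mitotic spindle in dividing cells, and a further set of kinesin and dynein chains works inside cilia.

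Messenger RNA was sequenced from brain tissue of Sprague-Dawley rats in 3 groups. Controls were restrained without electroacupuncture. The columns named Sham were taken as theirs because no other group was left for them. The model had middle cerebral artery occlusion and reperfusion with the same restraint. The electroacupuncture group had that operation and restraint with stimulation at the Tianfu, Chize, Kongzui and Taiyuan acupoints. Samples of these last 2 groups are called operated below. This word refers to the occlusion only and does not say that controls, whose columns are named Sham, had no surgery. All animals were therefore restrained. Brain region, side, age, sex and time after the operation are not stated in any source used here. Synaptic plasticity, which the study's title names, depends on transport of receptors and vesicles by these motors.

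The labels list 12 samples, 4 per group, and 11 columns were analysed, of which 3 were taken as controls. For 3 column pairs within a group, counts were alike nearly to the limit of sampling noise (median squared difference over sampling variance 1.34 to 1.4, and 4.75 to 26.5 in the remaining 12 such pairs), so each pair was counted as 1 sample. This left 3 control samples (A, B, C), 2 model samples (A, B) and 3 electroacupuncture samples (A, B, C), with totals of 9335913 to 23835724 counts. Of the 15487 genes tested between groups, electroacupuncture A was the lowest sample for 23.7%, and model A and model B for 15.5% each. Electroacupuncture A and both model samples stood apart in tissue markers. Markers of hippocampal neurons summed to 211 CPM (counts per 1000000 counts, after scaling) in electroacupuncture A and to 236 and 338 CPM in models A and B, against 515 to 636 CPM in the other 5 samples. Markers of striatal medium spiny neurons reached 4744 CPM in electroacupuncture A and 703 CPM in model A, against 146 to 343 CPM elsewhere. General neuronal markers summed to 3215 CPM in electroacupuncture A and 4991 CPM in model A, against 7037 to 9780 CPM elsewhere. In bulk tissue, fewer cells of a type and less RNA per cell cannot be told apart, and the part of these differences in the results was not tested.

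A plot of all members by sample shows 2 kinds of behaviour. Most motors of axonal and dendritic transport varied within a few-fold, while the mitotic and some cilium-linked motors varied widely with the sample. Of the 58 members, 55 had enough counts to be tested. Kif14, Kif28p and Klc3 did not pass the filter on low counts. The ratio of the highest to the lowest of the 8 samples was under 1.5 for 11 of the 55 (20%, against 19.7% of all 15487 tested genes) and over 4 for 14 (25.5%, against 22.4%). All 14 were mitotic kinesins (10), cilium-linked motors (Dynlrb2, Kif19) or the kinesins Kifc3 and Kif24. Levels are compared between samples and not between genes, because CPM does not account for gene length.

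**Figure D1:**
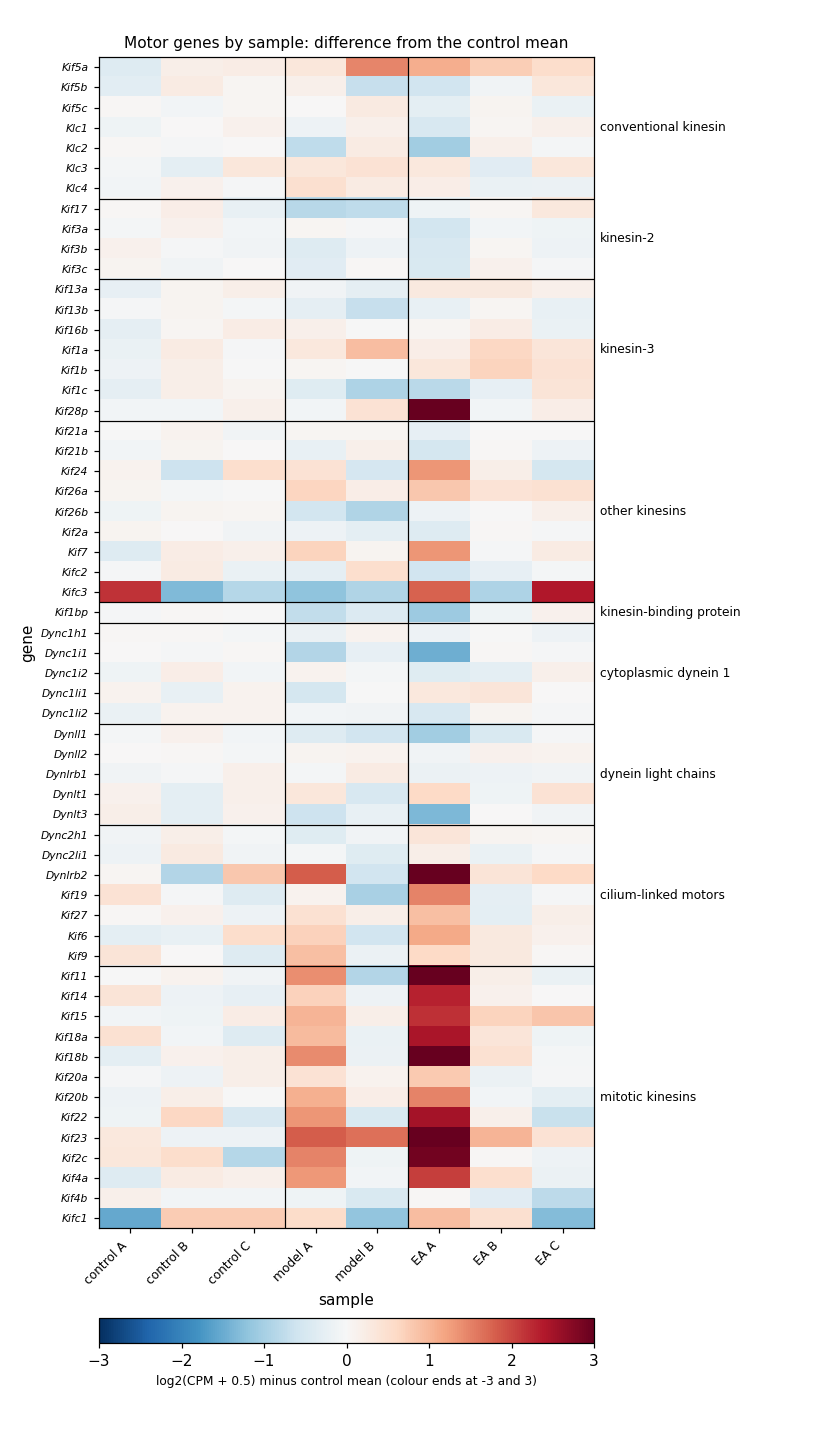
Difference of each of the 58 members from the control mean on the log2(CPM + 0.5) scale (colour) in each of the 8 samples (columns), ordered by role (rows); EA stands for electroacupuncture. The rows of mitotic kinesins are darkest in electroacupuncture A and next in model A, and the row of Kifc3 is high in control A, electroacupuncture A and electroacupuncture C.

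No motor gene passed the test between any of the groups at an adjusted p under 0.05 (edgeR quasi-likelihood test, Benjamini-Hochberg over all 15487 genes). For model against control, 0 of 55 members were called, against 0.00646% of all genes (1 gene). At an unadjusted p under 0.05, 3 members were higher (Kif1a, Kif5a, Kif23) and 3 lower (Kif13b, Kif17, Kif26b), which is 6 of 55 beside 13.8% of all genes. These 6 became 11 without electroacupuncture A, where 21.7% of all genes passed the same limit. They became 3 without control A or control B (8.83% and 10.7% of all genes) and 2 without control C or model B (9.53% and 13.4%). Both model samples lay above every control for 8 members, beside 18.2% of all genes, and below every control for 11, beside 19.6%. DESeq2 called 1 member, Kif17 (lower), beside 5.11% of all genes, and edgeR with every column as a separate library called the same gene, beside 7.37%. These shares of members are near or under those of all genes.

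For electroacupuncture against model, again 0 of 55 members were called by edgeR, as were 0% of all genes. At an unadjusted p under 0.05, 5 were higher (Kif17, Kif1b, Kif26b, Kif13a, Dync2h1) and 1 lower (Klc4), beside 13.5% of all genes. This count of 6 was 9 without electroacupuncture A, beside 19.8% of all genes, and 4 without control A or model B, beside 11.2% and 11.4%. It was 3 without control C (11.3% of all genes) and 2 without control B or electroacupuncture B (11.3% and 10.6%). All electroacupuncture samples lay above both model samples for 7 members, beside 12.9% of all genes, and below them for 4, beside 11.7%. DESeq2 called Kif17 (higher), beside 4.51% of all genes. With every column as a separate library edgeR called 4, namely Kif17, Kif1b and Kif13a (higher) and Klc4 (lower), beside 10.9%. The median log2 fold change of the members was 0.15, against 0.03 for all genes, and it was 0.0015 without electroacupuncture A and 0.29 without model A.

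For electroacupuncture against control, 0 of 55 members were called by edgeR and 0% of all genes. Unadjusted, 5 were higher (Kif1b, Kif23, Kif15, Kif26a, Kif5a) and none lower, beside 3.66% of all genes. Leaving out a sample gave 2 without electroacupuncture A or control C, beside 1.66% and 2.82% of all genes. It gave 1 without control B (1.36% of all genes) and 8 without electroacupuncture C (9.05%). In the full set of samples, the same 5 had every electroacupuncture sample above every control, beside 5.98% of all genes, and 2 (Dynlrb1 and Kif3a) lay below, beside 4.88%. DESeq2 called 0 members, beside 0.0054% of all genes, and 0 were called with every column separate, as were 0% of all genes. The comparisons share control or model samples, so their values are not independent of each other.

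**Figure D2:**
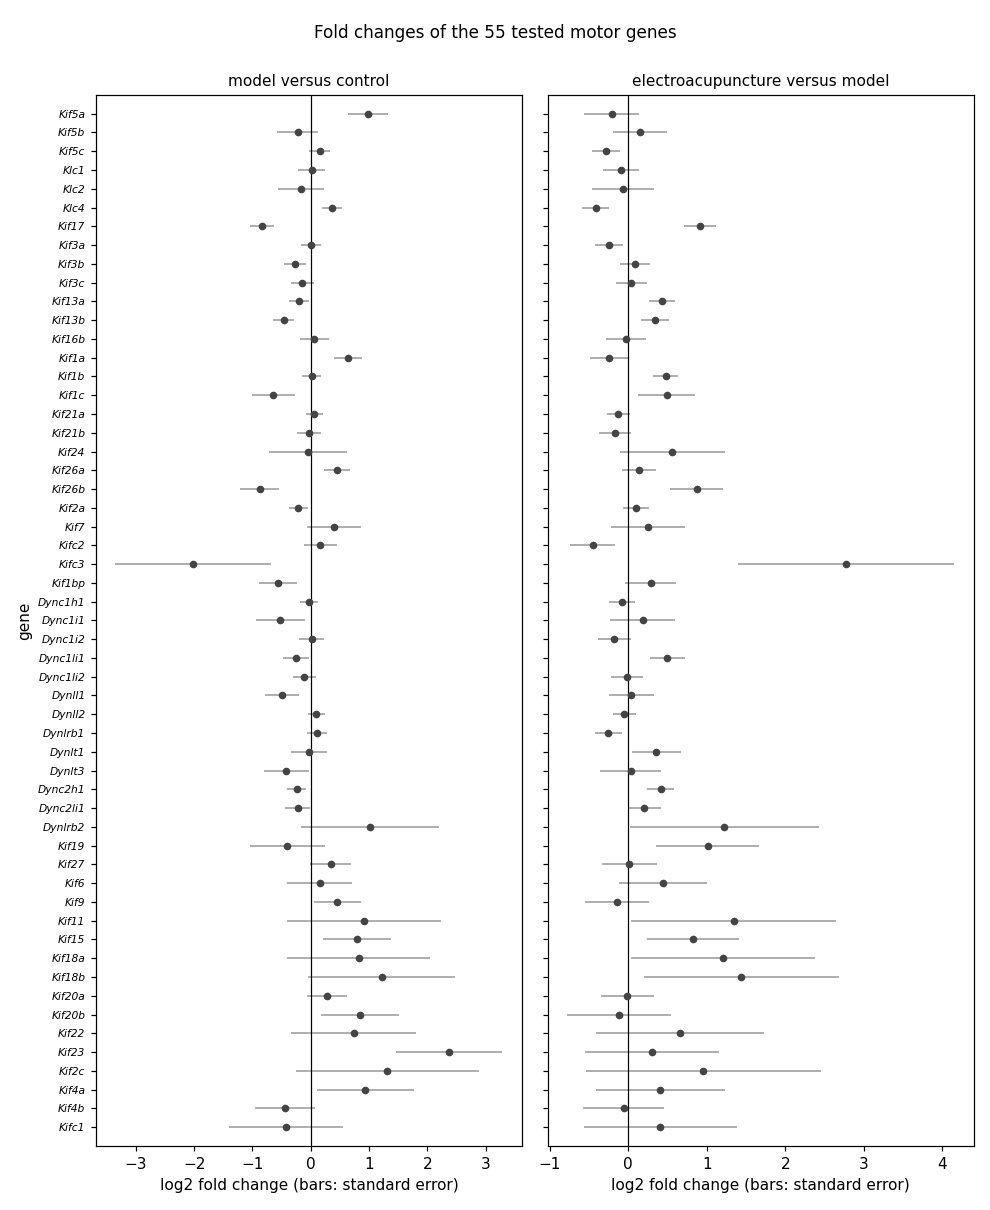
Log2 fold change (points) with its standard error (bars) of the 55 tested members in 2 comparisons, the model against controls and electroacupuncture against the model, ordered by role. Kif17 stands furthest from 0 in units of its error in both panels, and Kifc3, Dynlrb2 and several mitotic kinesins have wide bars.

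Conventional kinesin is built from a pair of heavy chains (Kif5a, Kif5b or Kif5c), which hold the motor, and a pair of light chains (Klc genes), which bind cargo. Kif5a, the heavy chain linked to axonal transport of neurofilaments and to hereditary spastic paraplegia, measured 91.9, 137 and 140 CPM in controls A to C. It measured 154 and 332 CPM in models A and B and 256, 202 and 173 CPM in electroacupuncture A, B and C. Every operated sample lay above every control, with or without electroacupuncture. The log2 fold change against control was 0.99 in the model (SE 0.35, edgeR adjusted p = 0.28) and 0.78 with electroacupuncture (SE 0.32, edgeR adjusted p = 0.843). Model B carried much of the first value, which was 0.32 without that sample. Of the 8 general neuronal markers, 2 lay above every control in model B (Snap25 and Syt1) and 3 below (Nefl, Nefm and Rbfox3). Of the 8 neocortical markers, 5 lay above and 2 below (Rasgrf2 and Neurod6), and the part of either list in the value of Kif5a was not tested.

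The other 2 heavy chains overlapped between the groups. Kif5c, the other neuron-enriched chain, measured 496 ± 25.1 CPM (SD, n = 3) in controls, 551 ± 69.6 CPM (n = 2) in the model and 453 ± 63.8 CPM (n = 3) with electroacupuncture. Kif5b, the chain found in most cell types, measured 326 to 479 CPM among controls, 451 and 251 CPM in models A and B and 273 to 516 CPM after electroacupuncture. So Kif5a and Kif5b stood at opposite ends in model B, where Kif5a was at its highest and Kif5b at its lowest of the 8 samples. Oligodendrocyte markers also had their lowest sum there (24497 CPM, against 31818 to 74253 CPM in the others), and their part in the value of Kif5b was not tested.

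Among the light chains, Klc1 measured 699 ± 63 CPM among controls, 705 ± 106 CPM in model samples and 663 ± 145 CPM after electroacupuncture. Klc2 was low in the samples with low neuronal markers, at 206 CPM in model A and 167 CPM for electroacupuncture A, while the other 6 lay at 334 to 412 CPM. Klc4 measured 34.6, 40.2 and 36 CPM among controls, 51.5 and 43.7 CPM in model samples and 42.4, 31.9 and 32.8 CPM after electroacupuncture. Both model samples thus exceeded the 6 others. Its log2 fold change was 0.37 for model against control (SE 0.17, edgeR adjusted p = 0.401, and 0.24 without model A) and -0.42 for electroacupuncture against model (SE 0.17, edgeR adjusted p = 0.355). Klc3 stayed under 1 CPM in every sample.

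Kif17, a kinesin-2 motor that carries NMDA receptors containing the Grin2b subunit into dendrites, was the motor with the smallest p in both comparisons that involve the model. It measured 20.1, 22.5 and 16.7 CPM in controls A to C and 10.8 and 11.4 CPM in models A and B. With electroacupuncture it measured 17.9, 20.4 and 24.5 CPM. Both model samples lay below all 6 others, and the control and electroacupuncture ranges overlapped. The deposited counts were whole numbers in every column, from 94 to 108 in the 4 model columns and from 182 to 246 in the other 7. These counts are not scaled to the column totals, which were 8668140 to 9435107 in the model and 9335913 to 11920744 in the others. The 4 model columns stand for 2 samples, and 2 of the other 7 for 1.

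The level of Kif17 in the model was 1.78-fold lower than in controls (log2 fold change -0.83, SE 0.21, edgeR adjusted p = 0.181) and was 1.88-fold higher with electroacupuncture than in the model (0.91, SE 0.21, edgeR adjusted p = 0.155). It did not pass in either comparison. DESeq2 gave an adjusted p of 0.0212 and 0.00879, and edgeR with every column separate 0.0105 and 0.00417. The call thus depends on the tool and on how the paired columns are treated. The fit with every column separate counts near-identical columns as independent samples. Over the 14 alternatives the log2 fold change ran from -0.93 to -0.72 for model against control and from 0.79 to 1.02 for electroacupuncture against model, with adjusted p of 0.0105 to 0.511 and of 0.00417 to 0.327 by edgeR or DESeq2. Of the 8 hippocampal markers, 7 lay below every control in model A, 6 in model B and 6 in electroacupuncture A, where Kif17 measured 17.9 CPM. Their part in the level of Kif17 was not tested.

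In mice, transcription of Kif17 has been linked to the activity-dependent factor CREB, which binds the cAMP response element. The 150 bases before the annotated start of rat Kif17 (RefSeq, GRCr8, chr5:155765442-155765591, plus strand) are shown because they hold that element, TGACGTCA, which reads the same on both strands and is in capitals.
Kif17: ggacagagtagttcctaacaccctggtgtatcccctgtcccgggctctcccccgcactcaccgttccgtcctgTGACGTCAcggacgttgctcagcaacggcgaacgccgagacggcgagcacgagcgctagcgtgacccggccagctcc
The element begins 77 bases before the start. It was found in the same window of 4 of the 43 motor genes with a promoter entry (Kif15, Kif17, Kif5c and Klc1) and in 1.53% of all 27457 genes with one. A match of letters is a description and does not show binding.

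The remaining kinesin-2 motors are subunits of heterotrimers that work in cilia and in axons. Kif3a measured 97.3 ± 8.55 CPM among controls, 97.7 ± 4.88 CPM in model samples and 82.5 ± 14.1 CPM after electroacupuncture. Kif3b measured 47.3 ± 4.11, 39.3 ± 4.62 and 41.7 ± 7.66 CPM in the same order, and Kif3c, its neuron-enriched relative, 65 ± 3.93, 58.8 ± 10.3 and 60.4 ± 12 CPM. All 3 were lowest in electroacupuncture A (66.3, 33.7 and 47.3 CPM), the sample with the lowest neuronal markers. That sample was also the lowest for 31% of all 58 members and 23.7% of all tested genes. None had an unadjusted p under 0.05 in any comparison.

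Kinesin-3 motors carry vesicles over long distances. Kif1a, which carries synaptic vesicle precursors, measured 101, 139 and 113 CPM among controls, 145 and 223 CPM in model samples and 133, 181 and 150 CPM after electroacupuncture. As with Kif5a, model B was highest. The model lay above the controls without overlap, with a log2 fold change of 0.64 (SE 0.24, edgeR adjusted p = 0.297) that was 0.30 without model B. Electroacupuncture A overlapped the controls.

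Kif1b, which has one splice form for mitochondria and another for synaptic vesicle precursors, followed a different order. It measured 35.4, 44.4 and 38.8 CPM among controls, 40.7 and 39.1 CPM in model samples and 49.7, 63 and 53.5 CPM after electroacupuncture. All 3 electroacupuncture samples lay above the 5 others, while the model lay within the control range. The log2 fold change was 0.49 against control (SE 0.14, edgeR adjusted p = 0.843) and 0.47 against the model (SE 0.16, edgeR adjusted p = 0.273). Summed markers of oligodendrocyte precursors were also highest in the 3 electroacupuncture samples (4, 5 and 5 of 5 markers above every control), at 368 to 390 CPM against 220 to 333 CPM elsewhere, and their part in this result was not tested.

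Kif13a, which moves cargo between the Golgi, endosomes and the cell surface, measured 26.9, 33.9 and 36.7 CPM among controls, 30.1 and 26.7 CPM in model samples and 39.6, 39.3 and 35.6 CPM after electroacupuncture. Its log2 fold change for electroacupuncture against model was 0.43 (SE 0.17, edgeR adjusted p = 0.337). Kif13b, a phosphoinositide-vesicle motor, measured 65.8 to 72.3 CPM among controls, 57.1 and 42 CPM in model samples and 58.4 to 71.4 CPM after electroacupuncture. Both model samples were the lowest of the 8, and the log2 fold change against control was -0.47 (SE 0.18, edgeR adjusted p = 0.305). It was -0.27 without model B and -0.71 without model A.

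Kif1c, a widely expressed motor linked to traffic from the Golgi, measured 624, 842 and 793 CPM among controls, 577 and 390 CPM in model samples and 423, 627 and 984 CPM after electroacupuncture. The lowest 2 samples, model B and electroacupuncture A, also had the lowest oligodendrocyte marker sums (24497 and 31818 CPM), and the highest, electroacupuncture C, had the highest sum (74253 CPM). The order differed when the 8 markers were averaged as log2 differences from the control mean. Model B was still lowest (-1.35), but model A (-0.42) and control A (-0.38) lay below electroacupuncture A (-0.3). Electroacupuncture B (0.51) and control C (0.44) lay above electroacupuncture C (0.26). The part of these markers in the level of Kif1c was not tested. The log2 fold change of Kif1c for model against control was -0.64 (SE 0.37, edgeR adjusted p = 0.473), and it was -0.39 without model B. Kif16b, an early endosome motor, ranged over 6.87 to 10 CPM. Kif28p was almost absent, with 0 to 0.219 CPM in 7 samples and 4.42 CPM in electroacupuncture A.

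**Figure D3:**
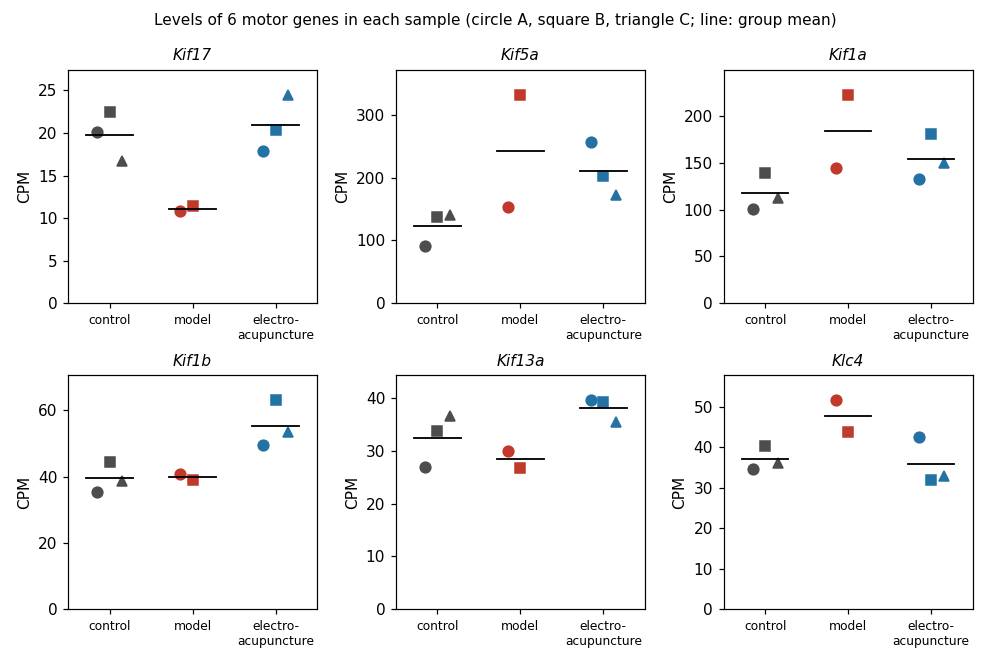
CPM (vertical axis, from 0) of 6 motor genes in each sample by group (horizontal axis); circles are sample A, squares B and triangles C, and the line is the group mean. Kif17 is lowest in both model samples (10.8 and 11.4 CPM), Kif1b is highest in the 3 electroacupuncture samples, and model B is the highest point for Kif5a and Kif1a.

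The other kinesins of differentiated cells ranged from steady to widely varying members. Kif21a, which tunes microtubule growth in axons, measured 142 ± 9.87 CPM among controls, 148 ± 0.0643 CPM in model samples and 136 ± 14.2 CPM after electroacupuncture. Its relative Kif21b, found mainly in dendrites, measured 136 ± 7.92, 133 ± 24.7 and 119 ± 23.6 CPM. Kif2a, which takes microtubules apart at their ends and limits axon branching, measured 74.9 ± 5.04, 64.5 ± 4.46 and 69 ± 10.4 CPM. These 3 had no unadjusted p under 0.05 in any comparison. Kifc2, a neuronal motor that moves towards microtubule minus ends, measured 521 to 710 CPM among controls, 501 and 862 CPM in model samples and 403 to 583 CPM after electroacupuncture.

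Kif26a and Kif26b are atypical kinesins known for roles in signalling. Kif26a measured 10.5, 9.44 and 9.89 CPM among controls, 15.8 and 11.5 CPM in model samples and 17.7, 13.3 and 13.9 CPM after electroacupuncture, so that all operated samples lay above the controls. Its log2 fold change for electroacupuncture against control was 0.59 (SE 0.20, edgeR adjusted p = 0.843). Kif26b resembled Kif17 in the order of its groups, at 2.57, 3.07 and 3.02 CPM among controls, 1.82 and 1.31 CPM in model samples and 2.52, 2.85 and 3.27 CPM after electroacupuncture. The log2 fold change was -0.88 for model against control (SE 0.34, edgeR adjusted p = 0.315) and 0.87 for electroacupuncture against model (SE 0.34, edgeR adjusted p = 0.323). Kif7, a regulator of Hedgehog signalling at the tip of the primary cilium, and Kif24, a centriole kinesin, were highest in electroacupuncture A, at 15.4 and 9.28 CPM against at most 9.54 and 5.04 CPM elsewhere.

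Kifc3, a minus-end motor known from epithelial cell junctions, took separate high and low levels that cut across the groups. It measured 50.2, 3.98 and 5.68 CPM in controls A to C, 4.34 and 5.53 CPM in models A and B, and 37.4, 5.4 and 59.1 CPM in electroacupuncture A, B and C. The lowest of the 3 high samples was 6.58 times the highest of the 5 low ones. Columns treated as 1 sample, which had been picked for being alike over all genes, had counts of 43 and 38, 49 and 52, and 54 and 73. These pairs were all low samples, and each of the 3 high samples rested on 1 column. On the log2(CPM + 0.5) scale, Kifc3 had the widest range within a group of all 58 members. No comparison of groups was called (edgeR adjusted p = 0.448 for electroacupuncture against model and 0.53 for model against control). Without control A the log2 fold change for model against control was 0.03, in place of -2.02.

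Kifc1, a minus-end motor of the spindle, also had high and low samples, in another arrangement. It measured 1.19, 7.84 and 7.79 CPM among controls, 6.7 and 1.64 CPM in model samples and 8.76, 6.29 and 1.48 CPM after electroacupuncture. Low Kifc1 and high Kifc3 coincided in control A and electroacupuncture C, but electroacupuncture A was high for both and model B low for both. The deposited counts of Kifc1 were fractional in 6 of 11 columns, so reads shared with other sequences may enter its values.

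**Figure D4:**
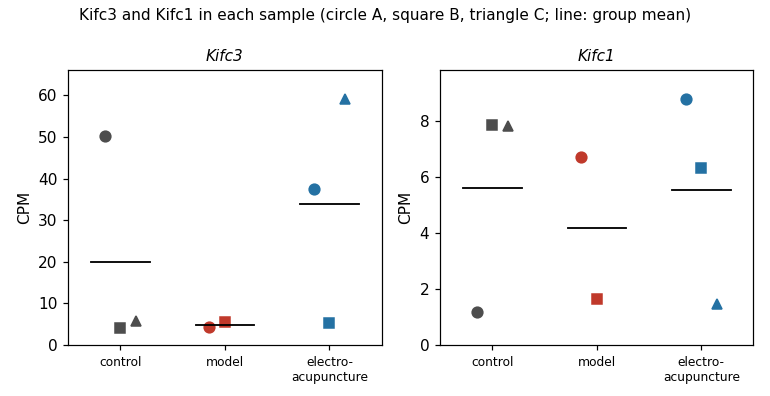
CPM (vertical axis, from 0) of Kifc3 and Kifc1 in each sample by group; circles are sample A, squares B and triangles C, and the line is the group mean. Kifc3 is at 37.4 to 59.1 CPM in 3 samples and at 3.98 to 5.68 CPM in the other 5, and Kifc1 is at 1.19 to 1.64 CPM in 3 samples and at 6.29 to 8.76 CPM in the other 5.

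Cytoplasmic dynein moves cargo towards the cell body and is assembled from a heavy chain that holds the motor, intermediate and light intermediate chains, and light chains. The heavy chain Dync1h1 was among the steadiest members, at 349 ± 14.6 CPM (SD, n = 3) in controls, 342 ± 49.3 CPM (n = 2) in the model and 324 ± 20 CPM (n = 3) with electroacupuncture. Dync1i1, the intermediate chain enriched in neurons, measured 127 to 133 CPM among controls, 70.8 and 110 CPM in model samples and 46.8, 134 and 127 CPM after electroacupuncture. Its lowest 2 samples, electroacupuncture A and model A, were those with the lowest neuronal markers. Dync1i2, the intermediate chain found in most cells, measured 292 ± 37.3, 295 ± 24.3 and 260 ± 53.9 CPM. The light intermediate chains, which bind cargo adaptors, overlapped between model and control, with Dync1li1 at 17.8 ± 2.21, 14.9 ± 3.98 and 21 ± 2.68 CPM and Dync1li2 at 210 ± 24.3, 195 ± 3.21 and 192 ± 37.6 CPM. None of the 5 had an unadjusted p under 0.05 in any comparison.

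Light chains showed the narrowest range of all members and also some broad ones. Dynll2 ranged from 348 to 404 CPM over the 8 samples, the smallest ratio among the tested members. Its near-identical relative Dynll1 measured 942 ± 79.7 CPM among controls, 672 ± 60.9 CPM in model samples and 689 ± 231 CPM after electroacupuncture, with a lowest value of 458 CPM in electroacupuncture A. Both proteins bind many partners besides dynein. The model lay below the controls without overlap for Dynll1 (log2 fold change -0.49, SE 0.29, edgeR adjusted p = 0.486). Its counts were fractional in every column, while those of Dynll2 were whole.

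Dynlrb1, the roadblock light chain, measured 433 ± 39.1 CPM among controls, 465 ± 72 CPM in model samples and 390 ± 9.39 CPM after electroacupuncture. Dynlt3, a light chain of the Tctex family, had its lowest 2 values in electroacupuncture A and model A, at 178 to 248 CPM among controls, 142 and 189 CPM in model samples and 85.7, 221 and 202 CPM after electroacupuncture. Its relative Dynlt1 went the other way in electroacupuncture A, where it was highest at 39 CPM, against 18.1 to 34.4 CPM elsewhere. Kif1bp, needed for axon outgrowth in neurons, measured 203 ± 5.15 CPM among controls, 121 and 154 CPM in model samples and 95.8, 185 and 222 CPM after electroacupuncture. Model and control did not overlap, and the log2 fold change was -0.56 (SE 0.33, edgeR adjusted p = 0.479).

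The 13 mitotic kinesins drive spindle assembly, chromosome movement and cell division. Kif11, which slides spindle microtubules apart, measured 0.917, 1.02 and 0.825 CPM among controls, 3.21 and 0.274 CPM in models A and B and 11.5, 1.11 and 0.738 CPM in electroacupuncture A, B and C. Electroacupuncture A was the highest sample for 12 of the 13, with Kif4b as the exception, and model A came second for 11 of these 12. By comparison, electroacupuncture A was the highest sample for 3869 of all 15487 tested genes (25%), and model A came second for 1562 of these 3869. Summed over the 13 genes, levels were 21.4 to 29.3 CPM among controls, 51.7 and 23.3 CPM in model samples and 109, 29.5 and 21.1 CPM after electroacupuncture. The groups overlapped because 1 sample of each operated group was high.

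Most markers of dividing cells were high in the same 2 samples, with 8 of 10 above every control in electroacupuncture A and 9 in model A. Cenpf was an exception, at 1.56, 41.5 and 34 CPM in the controls, 37.2 CPM in model A and 17.9 CPM in electroacupuncture A, and Birc5 in electroacupuncture A (3.82 CPM) lay below control C (4.03 CPM). The 10 markers summed to 22.8 to 64.5 CPM among controls, 127 and 32.5 CPM in model samples and 219, 71.2 and 23.3 CPM after electroacupuncture. Mki67, the standard marker of proliferation, measured 52.7 CPM for electroacupuncture A and 17.4 CPM in model A, against 2.57 to 7.95 CPM elsewhere. The samples also differed in their striatal markers, as given above, and the part of either in the levels of the mitotic kinesins was not tested.

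Kif23, a motor of the central spindle needed for cytokinesis, was the mitotic kinesin with the smallest p. It measured 0.825, 0.455 and 0.458 CPM among controls, 3.27 and 2.85 CPM in model samples and 8.76, 1.66 and 0.949 CPM after electroacupuncture. Both model samples were high, and all 5 operated samples lay above the controls. The log2 fold change against control was 2.37 in the model (SE 0.91, edgeR adjusted p = 0.315) and 2.68 with electroacupuncture (SE 0.87, edgeR adjusted p = 0.843), the second of which was 1.19 without electroacupuncture A. Without that sample the model difference passed (edgeR adjusted p = 0.0394, with a range of 0.0394 to 0.58 over the alternatives). Kif15, which backs up Kif11 in the spindle, measured 1.48 to 2.02 CPM among controls, 3.91 and 1.97 CPM in model samples and 9.37, 2.98 and 3.37 CPM after electroacupuncture, where its log2 fold change against control was 1.63 (SE 0.54, edgeR adjusted p = 0.843) and was 0.90 without electroacupuncture A.

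Of the others, Kif18b, Kif22, Kif2c and Kif4a reached 11.5, 14.3, 6.25 and 7.37 CPM in electroacupuncture A, while their controls measured at most 0.825, 3.52, 0.796 and 1.71 CPM. Kif20a, which acts late in mitosis, differed less between samples, from 7.95 to 16.1 CPM, and its counts were partly fractional. Kif14, Kif18a and Kif20b reached 3.47, 4.34 and 5.9 CPM in electroacupuncture A. Kif4b ranged from 0.422 to 1.28 CPM without a peak there. Kif4b and its close relative Kif4a had whole counts in every column.

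Genes of late mitosis often carry a CHR element (cell cycle genes homology region) beside CCAAT boxes in their promoters. The 150 bases before the start of Kif23 (chr8:71320585-71320734, minus strand), Kif22 (chr1:191080879-191081028, minus strand) and Kif15 (chr8:131479254-131479403, plus strand) are given from RefSeq, GRCr8, as mitotic kinesins that were high together in electroacupuncture A and hold the letters TTTGAA. Capitals mark TTTGAA and CCAAT in either direction (TTCAAA and ATTGG on the other strand), which do not overlap here.
Kif23: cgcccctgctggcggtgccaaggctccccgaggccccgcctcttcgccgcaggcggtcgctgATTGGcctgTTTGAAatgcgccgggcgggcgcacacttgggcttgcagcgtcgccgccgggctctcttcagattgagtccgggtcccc
Kif22: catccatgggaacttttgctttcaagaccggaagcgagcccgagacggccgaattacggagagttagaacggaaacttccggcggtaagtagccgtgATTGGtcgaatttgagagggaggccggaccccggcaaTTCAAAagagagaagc
Kif15: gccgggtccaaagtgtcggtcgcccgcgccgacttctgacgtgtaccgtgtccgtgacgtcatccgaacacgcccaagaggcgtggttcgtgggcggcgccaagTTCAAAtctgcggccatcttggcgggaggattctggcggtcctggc
TTTGAA was found in this window of 5 of the 11 mitotic kinesins with a promoter entry (Kif15, Kif20b, Kif22, Kif23 and Kifc1) and of 9.96% of all genes with one. CCAAT was found in 6 of the 11 and in 25.3% of all genes. Kifc1 holds both and had high and low samples in another arrangement, and Kif11, which was high in the same samples, lacks TTTGAA in this window. The matches say nothing on their own about which factor binds.

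Cilium-linked motors serve both the single primary cilium of most cells and the many beating cilia of ependymal cells that line the ventricles. Dynlrb2, a dynein light chain of ciliated cells, measured 2.38, 1.02 and 4.4 CPM among controls, 9.22 and 1.37 CPM in model samples and 30.4, 3.15 and 3.69 CPM after electroacupuncture. Kif19, which limits the length of motile cilia, measured 18.3 CPM for electroacupuncture A, against 2.9 to 8.52 CPM in the remaining 7. Kif6 and Kif27 were also highest there, at 7.46 and 20.2 CPM, against at most 5.36 and 14.7 CPM elsewhere, and both of these next values were in model A. Kif9, a motor of motile cilia, was highest in model A at 12 CPM, against 4.58 to 9.63 CPM elsewhere.

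Most of the 18 markers of ciliated ependyma were high in the same 2 samples: 17 lay above every control in electroacupuncture A and 16 in model A. Dnah9 went the other way, at 112 to 128 CPM among the controls, 33.9 CPM in model A and 32.5 CPM in electroacupuncture A, and Rsph4a was at 0 in model A. The list had sums of 692 CPM in electroacupuncture A and 355 CPM in model A, against 203 to 271 CPM among controls, 249 and 235 CPM in electroacupuncture B and C and 75.2 CPM in model B. Foxj1, the master regulator of motile cilia, measured 54.2 CPM in electroacupuncture A, 17.5 CPM in model A but 2.41 CPM in model B. Their part in the levels of these motors was not tested. Kif9 (GRCr8, chr8:119337949-119338098, plus strand) is shown as a cilium-linked motor with the letters GTTGCC, part of the X-box bound by RFX factors of ciliated cells, in capitals.
Kif9: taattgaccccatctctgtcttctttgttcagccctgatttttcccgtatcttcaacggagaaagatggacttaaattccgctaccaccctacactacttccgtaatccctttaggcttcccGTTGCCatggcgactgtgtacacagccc
These letters, or GGCAAC on the other strand, were found in 3 of the 5 cilium-linked motors with a promoter entry (Dync2li1, Kif27 and Kif9) and in 6.99% of all genes with one.

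The chains of dynein 2, which returns cargo from the tip of every cilium, varied less. Dync2h1, its heavy chain, measured 33.5, 40.8 and 35.1 CPM among controls, 28.1 and 33.5 CPM in model samples and 46.9, 38.5 and 37.9 CPM after electroacupuncture. Model and electroacupuncture samples did not overlap, with a log2 fold change of 0.41 (SE 0.17, edgeR adjusted p = 0.35). Dync2li1 measured 22.4 ± 3.96, 19.1 ± 2.89 and 22 ± 3 CPM in the 3 groups.

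**Figure D5:**
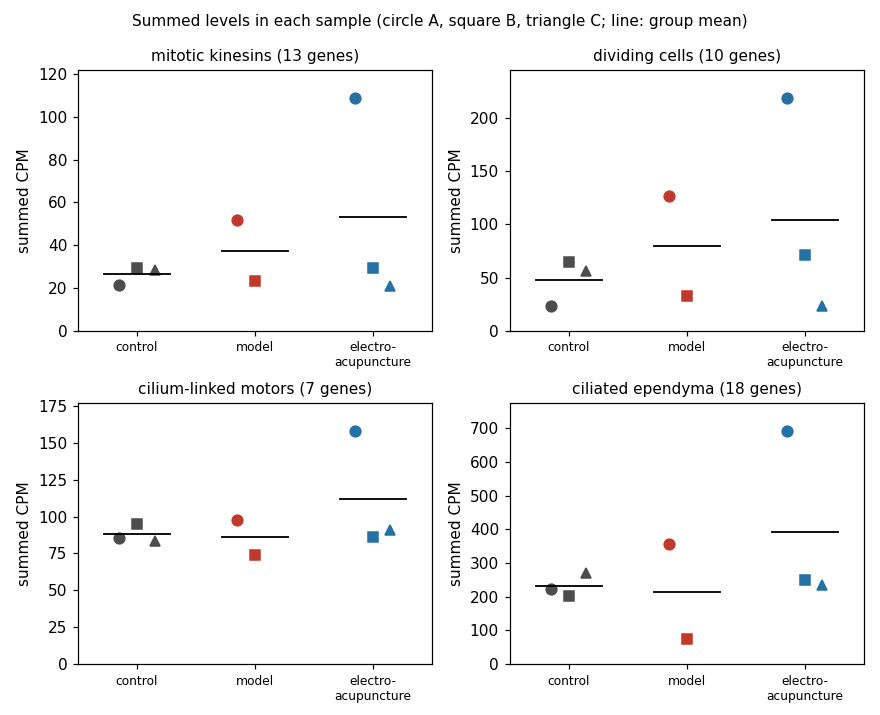
Summed CPM (vertical axes, from 0) of the mitotic kinesins, of markers of dividing cells, of the cilium-linked motors and of markers of ciliated ependyma in each sample by group; circles are sample A, squares B and triangles C, and the line is the group mean. In all 4 panels electroacupuncture A is highest and model A second.

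Genes that work with the motors were read from 3 lists drawn up for this description, and 0 of their members were called by edgeR in any comparison of all 8 samples. Among 23 tested genes of dynactin and dynein regulation, 1 had an unadjusted p under 0.05 for model against control (Hook2, higher) and 2 for electroacupuncture against model (Hook1 and Hook2, lower), beside 13.8% and 13.5% of all genes. Hook2, a dynein adaptor, measured 12.6, 17.2 and 16.5 CPM among controls, 30.1 and 28.5 CPM in model samples and 19.8, 13.6 and 15.4 CPM after electroacupuncture. Both model samples stood above the 6 others (log2 fold change 0.92 against control, SE 0.21, edgeR adjusted p = 0.17). Without electroacupuncture A this difference passed (edgeR adjusted p = 0.0395, with a range of 0.0395 to 0.511 when 1 sample was left out). The median log2 fold change of this list was -0.05 for model against control and 0.02 for electroacupuncture against model, against 0.02 and 0.03 for all genes.

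Among 28 tested kinesin adaptors and cargo links, which include Kif1bp, 0 had an unadjusted p under 0.05 for model against control and 4 for electroacupuncture against model, with Fez1, Grip1 and Ppfia1 higher and Lin7a lower. The 4 compare with 13.5% of all genes, and the 0 with 13.8%. Fez1, an adaptor of conventional kinesin in axons, measured 265 to 313 CPM among controls, 218 and 203 CPM in model samples and 236, 354 and 340 CPM after electroacupuncture. The list's medians were -0.17 and 0.17 in these comparisons. Apba1, whose protein (with Lin7 proteins) links Kif17 to its receptor cargo, measured 10.7 to 14 CPM in controls. It measured 15.4 and 15.2 CPM in the model and 16.7 to 19.7 CPM after electroacupuncture, so that all operated samples lay above the controls. Of the 28, only Apba1 (1 gene) had an unadjusted p under 0.05 for electroacupuncture against control, beside 3.66% of all genes (edgeR adjusted p = 0.843). Lin7a differed in the opposite direction to Kif17, at 3.32 and 4.32 CPM in the model and 0.347 to 1.53 CPM after electroacupuncture. Its log2 fold change between these groups was -2.12 (SE 0.61, edgeR adjusted p = 0.217).

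Among 33 tubulins and microtubule-associated proteins, 2 were higher (Stmn1, Tubb3) and 1 lower (Map7) at an unadjusted p under 0.05 for model against control, and 3 were lower (Stmn1, Tubb3, Map6) and 1 higher (Map7) for electroacupuncture against model. Among all genes the shares were 13.8% and 13.5%. The list's medians were -0.01 and -0.05. Stmn1, a tubulin-binding protein of growing neurites, measured 350, 562 and 540 CPM among controls, 946 and 989 CPM in model samples and 474, 614 and 599 CPM after electroacupuncture (log2 fold change for electroacupuncture against model -0.78, SE 0.24, edgeR adjusted p = 0.239). Tubb3, the neuronal beta-tubulin, measured 350 to 399 CPM among controls, 513 and 557 CPM in model samples and 323 to 416 CPM after electroacupuncture. Map7, which recruits conventional kinesin to microtubules, measured 169 to 221 CPM among controls, 123 and 88.3 CPM in model samples and 127, 199 and 217 CPM after electroacupuncture. For these 3 genes, picked by their p, both model samples lay outside the range of the other 6. Of the 33 genes, 6 had both model samples above every control and 6 below. The shares of all genes were 18.2% and 19.6%.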

How the data were processed

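Per the labels' protocols, poly(A) RNA went into paired-end libraries that keep the strand. The authors deposited expected counts (estimated read counts, partly fractional, not normalized). The submitters' processing notes name featureCounts 1.5.0-p3, HISAT2 2.0.5, DESeq2 1.16.1 and StringTie 1.3.3b without roles. The genome build and any use of the molecular identifiers are not stated in any source used here. Counts were fractional in at least 1 column for 19 of the 58 members.

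Column names gave the group, by exclusion for the controls, and not the labelled sample. The 4 symbols on 2 rows were summed and counts were rounded. Columns of 1 group whose median squared difference was under 2 times the sampling variance were summed as 1 sample. All 8 samples entered 1 fit in edgeR 4.0.16 (two-sided quasi-likelihood F test, R 4.3.3, scaling by TMM, default filter on low counts, 5 residual degrees of freedom, common biological coefficient of variation 36.8%), and p was adjusted over 15487 genes. The functions were tested on simulated data. DESeq2 1.42.0, other scalings and filters, separate columns and leaving out each sample were alternatives. No source says which samples are separate animals. The p-values then reflect only how far these samples differ, which may be technical. Sample totals were 9335913 to 23835724 counts, and counting error matters mainly for genes near 1 CPM.

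The members, lists and named genes were chosen with earlier results of these data known. Named were members with the 4 smallest p per direction and comparison, all at an unadjusted p under 0.05, the widest within-group ranges, and a fixed list by role. Promoters came from RefSeq (GRCr8), which holds entries for 43 of the 58 members.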

Additional observations from a re-analysis of the deposited data

How the results depend on the processing

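The 26 log2 fold changes named for their small p kept their direction in all 14 alternatives. They were picked by p from these same data. Other values given above are not among the 26. One of them, Kifc3 for model against control, changed direction, from -2.02 to 0.03 without control A. For model against control, the count of called genes was 1129 with every column separate, 799 with DESeq2 and 0 with total counts, and 0 to 565 when 1 sample was left out (356 without model A, 565 without electroacupuncture A). Where 1 model sample is left, it is assumed to vary like the other groups. For electroacupuncture against model it was 1666, 705 and, leaving out 1 sample, 0 to 308 (278 without electroacupuncture A, 308 without model A). For electroacupuncture against control it was 1 with DESeq2, and 0 to 0 when 1 sample was left out. Called motor genes for model against control numbered 1 with every column separate and 1 with DESeq2 (Kif17), and 0 to 1 leaving out 1 sample (Kif23, without electroacupuncture A). For electroacupuncture against model they numbered 4 and 1, and 0 leaving out 1 sample, as against control. The cause of these differences in calls was not tested. The fit with every column separate counts the 3 near-identical column pairs as independent samples, so its p-values may be too small. Of the 26, 6 passed in some alternative. Total counts moved the median of all genes by model against control from 0.02 to 0.13 (log2). No paired analysis was possible because the deposited columns could not be tied to the numbered samples of the labels. Genes near 1 CPM, such as Kif14, Kif18a and Kif28p, rest on few counts.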

Other observations

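The high and low levels of Kifc3 were set beside those of other genes after its values had been seen. On the log2(CPM + 0.5) scale, the gap between its high and low samples was 2.62. A gap at least as large between neighbours in the order of the 8 samples was found for 303 of 14811 genes whose mean reached 1 CPM (2.05%). For 29 of these 14811 genes (0.196%), the largest gap was at least 1 on that scale and set the same 3 samples above the rest.

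For Kifc1 the gap was 1.66, and 699 of the 14811 genes (4.72%) had one as large. For 3 of the 14811 (0.0203%), Kifc1 included, the largest gap was at least 1 and set the same 5 samples above the rest. Phf1, its nearest annotated neighbour, and Daxx, the next but 1, measured 46.4 to 67.6 CPM and 32.7 to 53.8 CPM. Neither was low in control A, model B and electroacupuncture C alone, the 3 samples in which Kifc1 was low. Among the markers, Cenpf was lowest in those 3 samples, at 0.527 to 1.56 CPM against 17.9 to 41.5 CPM elsewhere. Cfap43 was too, at 0.602 to 6.87 CPM against 20.2 to 43.1 CPM. Both were picked after their values had been seen.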
